A study of Homo sapiens with 16 samples.

Results

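The response to nutlin was compared between K1 and TPC1, lines derived from human papillary thyroid carcinoma that carry wild type p53. For each gene, the change from DMSO to nutlin in TPC1 was subtracted from the change in K1, in a single fit of both lines. The comparison rests on 8 of the 16 libraries in the series, namely TPC1 with DMSO, TPC1 with nutlin, K1 with DMSO and K1 with nutlin, each with 2 libraries. Cells received 0.2% DMSO as vehicle or 10 µM nutlin-3a for 24 h, and the other 8 libraries, treated with 25 µM GSK2830371 alone or with nutlin, entered the fit to estimate the spread between replicates. TPC1 grew in RPMI and K1 in DMEM, so medium and line cannot be told apart. Each line stands for itself alone, and p values measure the spread between these libraries. The labels do not say that the libraries of a group came from separate cultures, whereas the study states of its experiments in general that replicates were prepared independently.

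p53 is a transcription factor held in check by MDM2, a ubiquitin ligase that binds its transactivation domain and marks it for degradation. Nutlin occupies the p53 pocket of MDM2 and releases p53, which then activates genes of growth arrest, apoptosis, DNA repair and metabolism, MDM2 among them. Repression is largely indirect, since p21, the product of CDKN1A, inhibits cyclin-dependent kinases, and the RB and DREAM complexes then silence genes of DNA replication and mitosis.

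The counts of the 8 libraries sum to 28888686 to 72453522, and 16738 genes were tested. TPC1 libraries are named by their column numbers, 1 and 3, because the labels number them 1 and 2. Of 7 thyroid follicular markers, PAX8 reached 317 to 470.4 CPM (read counts scaled to a common library total) in TPC1 and 742 to 838 CPM in K1, whereas TG stayed at or below 5.62 CPM and NKX2-1 and SLC5A5 below 1 CPM. TSHR was too low to be tested. Among epithelial markers KRT8 and KRT18 were abundant in both lines, EPCAM and KRT19 stayed below 1 CPM and CDH1 was too low to be tested, while the mesenchymal genes VIM and FN1 were abundant. The summed CPM of the fibroblast markers lay between 11.3 and 22.8, with COL3A1 too low to be tested, and that of the endothelial and leukocyte markers at or below 3.92, with PECAM1, PTPRC, CD3E and MS4A1 too low to be tested.

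The 2 lines changed many of the same genes, but K1 changed them by less. The difference between the responses was called for 3217 genes, or 19.2% of those tested, with 1462 genes (8.73%) higher and 1755 genes (10.5%) lower in K1. A gene was called at an adjusted p below 0.05 in the quasi-likelihood test of edgeR (Benjamini-Hochberg adjustment) and a difference above 1.5-fold. "Higher" and "lower" here compare responses, so a gene that fell by less in K1 counts as higher.

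Most of these genes responded in TPC1 and responded less, or not detectably, in K1. In 2930 genes the change was less far in K1. Of the 1340 of these with a higher response, 438 fell in both lines and 902 fell in TPC1 without a call in K1. Of the 1590 with a lower response, 241 rose in both lines and 1349 rose in TPC1 without a call in K1. K1 moved 50 genes further than TPC1 did, and 9 genes moved in opposite directions. The remaining 228 differed without a called response in either line.

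Among the 11758 genes that averaged 1 CPM or more in DMSO or nutlin in each line, 1339 (11.4%) were higher and 1510 (12.8%) lower in K1. Of these, 2600 moved less far in K1, 34 moved further and 5 moved in opposite directions. Across these genes the log2 fold changes of the lines had a Pearson r of 0.79 and a slope of K1 on TPC1 of 0.36, and 76.9% had the same sign in both lines. Their standard deviation was 0.99 in TPC1 and 0.45 in K1. These are descriptions across genes, which are not independent replicates, and the lines share no control library.

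The fit called 424 genes as upregulated in both lines, which is 14.1% of those upregulated in TPC1, where 3.23% of all genes tested were upregulated in K1, and 78.4% of those upregulated in K1, where 17.9% of all were upregulated in TPC1. It called 722 genes as downregulated in both, 26.8% of the TPC1 set against 4.91% of all genes, and 87.9% of the K1 set against 16.1% of all genes. Among the genes upregulated in both lines, TPC1 had a median log2 fold change of 1.95 and K1 of 0.93, and the response was called weaker in K1 for 56.8%. Among those downregulated in both it was -1.83 and -0.98, and 60.7% were called weaker in K1.

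**Figure D1:**
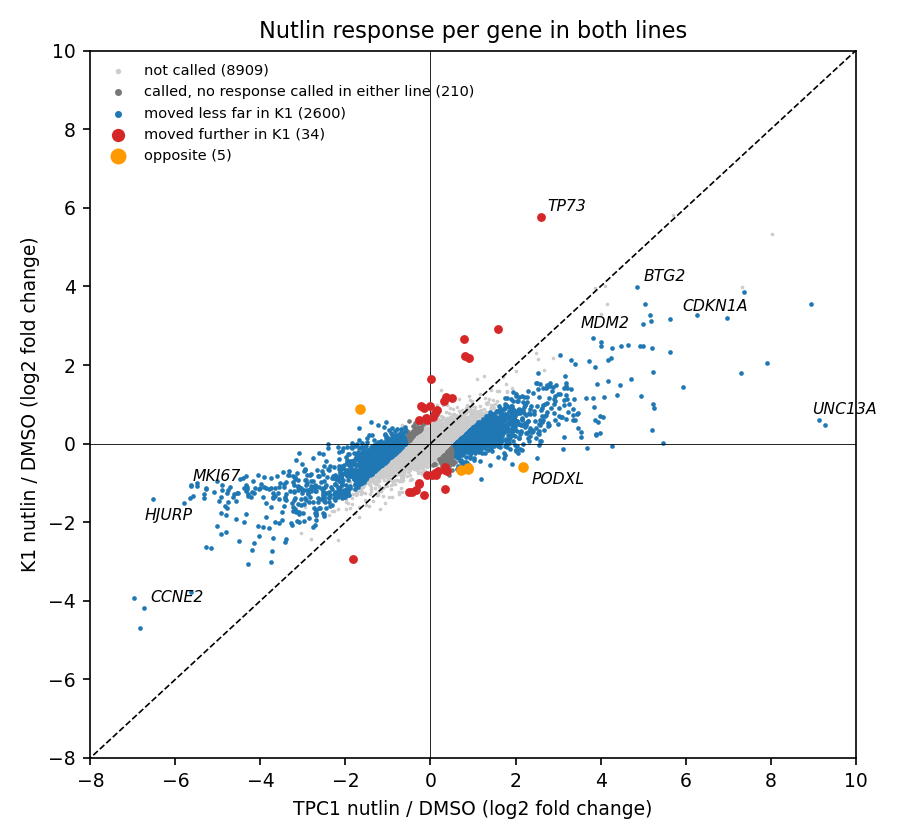
Log2 fold change of nutlin over DMSO in TPC1 (x axis) and K1 (y axis) for the 11758 genes with at least 1 CPM in each line, each point being 1 gene and the dashed line marking equal responses. The 2600 genes that moved less far in K1 lie on the side of the dashed line toward the horizontal axis, some of them across it, and TP73 stands above the dashed line.

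Genes of mitosis showed the widest gap among the lists examined. All 49 tested were downregulated in TPC1 and 48 of 49 in K1, and for all 49 the response was called higher in K1, that is, the decrease was smaller. The background is 8.73% of all genes tested. For counts within a line, here and in the lists below, it is 16.1% downregulated in TPC1 and 4.91% in K1. For upregulation it is 17.9% in TPC1 and 3.23% in K1. TPC1 had a median log2 fold change of -4.03 and K1 of -1.15, and the median difference was 3.0, against -0.03 over all genes tested. Under nutlin the median mitotic gene kept 6.11% of its DMSO level in TPC1 and 45.2% in K1. Over the pairs of 1 nutlin and 1 DMSO library the median of the list was -4.08 at its lowest and -3.92 at its highest in TPC1, and -1.41 and -0.88 in K1, so the lines did not overlap.

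The order of the lines turned over with treatment. In DMSO the median mitotic gene was in K1 at 69.8% of its TPC1 level, and under nutlin at 559%. K1 held the higher mean level in 3 of 49 genes in DMSO and in 48 of 49 under nutlin. In RNA from bulk cultures, fewer cells in mitosis and less mitotic RNA per cell cannot be told apart.

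HJURP, the chaperone that loads CENP-A at centromeres, had the largest positive difference of all genes that met the rule for naming. It lies at chr2:234742062-234763212 on the minus strand (GRCh37). Its level was 117 and 128 CPM in the TPC1 DMSO libraries and 1.38 and 1.30 CPM under nutlin, and 102 and 94.4 CPM in K1 DMSO and 31.8 and 41.7 CPM in K1 nutlin. The TPC1 nutlin libraries were the lowest and stood far below those of K1. On the log2 scale TPC1 changed by -6.52 and K1 by -1.41, a difference of 5.11 (SE 0.22, adjusted p = 1.77e-10).

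PLK1, the kinase that drives mitotic entry and spindle assembly (chr16:23688977-23701688, plus strand, GRCh37), followed the same pattern. TPC1 held 265 and 295 CPM in DMSO and 6.44 and 6.01 CPM under nutlin, and K1 held 212 and 179 CPM in DMSO and 78.05 and 117 CPM under nutlin. The difference was 4.50 (SE 0.24, adjusted p = 1.37e-09). MKI67, the proliferation antigen Ki-67 (chr10:129894923-129924687, minus strand, GRCh37), went from 1393 and 1067 CPM to 27.2 and 24.1 CPM in TPC1 and from 558 and 483 CPM to 186 and 229.7 CPM in K1, a difference of 4.26 (SE 0.24, adjusted p = 2.45e-09). In all 3 genes the libraries of every group were separate from those of the other treatment of the same line.

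The other genes with the largest positive differences also belong to the mitotic apparatus. NEK2, a centrosomal kinase, had 1.08 and 1.38 CPM in TPC1 nutlin against 16.99 and 21.9 CPM in K1 nutlin, and a difference of 4.57. CENPA, the centromeric histone, had 0.674 and 0.675 CPM against 7.05 and 9.28 CPM, with a difference of 4.56. GTSE1, a microtubule-binding protein that restrains p53 in G2, and NCAPH, a condensin subunit, differed by 4.40 and 4.30. In DMSO both TPC1 libraries held more of each of these 4 genes than K1 did, for NEK2 64 and 62.4 CPM against 43.1 and 38.2 CPM.

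The promoters of 3 of these genes are shown because silencing by DREAM is known to act through TTTGAA, the cell cycle homology region. The boxes with the letters CCAAT are marked for description only, and no part in silencing is assigned to them. Each sequence covers 250 bases before to 50 after the RefSeq start (GRCh38.p14, gene strand), with every TTTGAA and CCAAT found on either strand in capitals, so that ATTGG marks CCAAT on the other strand.
HJURP, chr2:233854486-233854785, minus strand: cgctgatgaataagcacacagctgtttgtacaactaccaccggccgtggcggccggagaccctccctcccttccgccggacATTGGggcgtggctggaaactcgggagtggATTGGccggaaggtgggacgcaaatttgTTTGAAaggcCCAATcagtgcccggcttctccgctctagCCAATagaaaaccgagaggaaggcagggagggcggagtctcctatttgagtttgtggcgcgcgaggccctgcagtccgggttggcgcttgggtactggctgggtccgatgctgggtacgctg
PLK1, chr16:23678639-23678938, plus strand: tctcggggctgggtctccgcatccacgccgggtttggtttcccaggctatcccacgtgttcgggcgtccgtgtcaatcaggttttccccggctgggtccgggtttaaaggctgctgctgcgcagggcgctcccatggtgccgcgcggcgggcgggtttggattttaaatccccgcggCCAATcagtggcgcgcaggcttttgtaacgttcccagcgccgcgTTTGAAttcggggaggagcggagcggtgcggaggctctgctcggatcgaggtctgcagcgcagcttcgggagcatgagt
MKI67, chr10:128126374-128126673, minus strand: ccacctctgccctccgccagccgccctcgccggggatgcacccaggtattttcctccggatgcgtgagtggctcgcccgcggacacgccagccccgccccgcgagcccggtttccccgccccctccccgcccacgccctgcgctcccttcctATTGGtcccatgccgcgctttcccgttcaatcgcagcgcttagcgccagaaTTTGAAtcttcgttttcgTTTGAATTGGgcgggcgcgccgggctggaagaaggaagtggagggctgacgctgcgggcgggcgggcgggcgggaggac
TTTGAA starts at -111 from the start in HJURP, at -29 in PLK1 and at -47 and -29 in MKI67, where the second match overlaps a CCAAT on the other strand. Of the 43 mitotic genes with a RefSeq promoter, 69.8% hold TTTGAA and 72.1% hold CCAAT, against 15.4% and 35.7% of the 27305 promoters of the table. These letters describe the sequence and do not show that a complex binds there. The shares belong to a list of known mitotic genes. Whether the letters go with the difference between the lines was not tested.

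Many genes of DNA replication and of the G1/S transition had a higher response in K1, and others were not called. Of 38 replication genes, 36 were downregulated in TPC1 and 35 in K1, against 16.1% and 4.91% of all genes tested. The response was higher in K1 for 26 (68.4%, against 8.73% of all genes tested) and lower for 1 (2.63%, against 10.5%). Medians were -2.70 in TPC1 and -1.74 in K1. The median replication gene kept 15.4% of its DMSO level in TPC1 and 30.0% in K1. A difference above 2 on the log2 scale was found for 3 of the 38 replication genes, 4 of 16 G1/S genes and 39 of 49 mitotic genes. That 1 list differed from another was not tested.

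RRM2, the small subunit of ribonucleotide reductase, went from 389.9 and 429 CPM to 13.1 and 12.1 CPM in TPC1 and from 255 and 264 CPM to 55 and 65.7 CPM in K1, a difference of 2.93 (SE 0.14, adjusted p = 6.11e-10). MCM10, which assembles the replisome, went from 67.3 and 66.6 CPM to 2.02 and 1.53 CPM and from 50.6 and 56.9 CPM to 8.18 and 9.12 CPM, a difference of 2.66. Both genes kept more of their level in K1 although they fell in both lines. PCNA, the sliding clamp and itself a target of p53, was the exception with a lower response in K1. It rose in TPC1 from 170.1 and 201 CPM to 268 and 290.2 CPM, while K1 had 169 and 178 CPM in DMSO and 151 and 168 CPM under nutlin, a difference of -0.71 (adjusted p = 0.00143). LIG1, the replicative ligase, had a difference of -0.29, which did not pass the fold threshold.

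Of 16 G1/S genes, 12 fell in each line and 11 were higher in K1 (68.8%, against 8.73% of all genes tested). Their medians were -2.38 in TPC1 and -1.57 in K1. CCNE2, cyclin E2, fell in TPC1 from 45.7 and 45.3 CPM to 0.438 and 0.418 CPM and in K1 from 19.8 and 23.6 CPM to 1.34 and 1.04 CPM, with a difference of 2.54 (SE 0.38, adjusted p = 8.25e-05). E2F1, the factor that activates S phase genes, had log2 fold changes of -4.15 in TPC1 and -2.53 in K1, with a difference of 1.62 (adjusted p = 8.41e-06). MYBL2, which drives late cell cycle genes with FOXM1, and CDC6, which loads the MCM helicase, differed by 3.26 and 2.56. CDT1, the partner of CDC6 in that step, had log2 fold changes of -2.17 in TPC1 and -2.45 in K1, and its difference did not pass the test (adjusted p = 0.178).

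The promoter of E2F1 is shown because its product activates its own gene and those of replication. Capitals mark CCAAT on either strand and the E2F letters TTTGGCGC at -20 (GRCh38.p14, chr20:33686336-33686635, minus strand, gene strand shown).
E2F1: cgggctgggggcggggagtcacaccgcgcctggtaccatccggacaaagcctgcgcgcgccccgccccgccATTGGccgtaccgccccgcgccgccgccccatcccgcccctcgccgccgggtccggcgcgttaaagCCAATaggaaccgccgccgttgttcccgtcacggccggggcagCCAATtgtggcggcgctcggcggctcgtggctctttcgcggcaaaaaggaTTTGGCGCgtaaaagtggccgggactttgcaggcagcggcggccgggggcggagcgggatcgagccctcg
TTTCCCGC or TTTGGCGC on either strand occurs in 44.1% of the 34 replication genes with a RefSeq promoter, in 4.65% of the 43 mitotic genes and in 2.31% of all promoters of the table. TTTGAA occurs in 2.94% of the replication promoters.

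Homologous recombination and Fanconi anemia genes, which repair replication-associated breaks, had medians of -2.98 in TPC1 and -1.60 in K1. Of 21 tested, 20 fell in each line and 17 were higher in K1 (81.0%, against 8.73% of all genes tested). EXO1, the resection exonuclease, and RAD54L, a motor protein of recombination, differed by 2.64 and 2.39. CHEK1, the checkpoint kinase, fell in both lines, with log2 fold changes of -1.24 in TPC1 and -1.31 in K1, and its difference did not pass the test (adjusted p = 0.681). Among 11 subunits of the RB family and DREAM, LIN9, TFDP1 and E2F5 were higher in K1, and RBL2 and LIN37 lower, with differences of 0.67, 0.69, 0.77, -0.67 and -0.61. The called genes are 45.5% of the list, against 19.2% of all genes tested. E2F5 averaged under 5 CPM in both treatments of at least 1 line. The call for LIN9 was lost without K1 nutlin library 1 (difference 0.57), and that for LIN37 in 9 of 19 alternatives, with values of -0.63 to -0.46 without K1 DMSO library 1 or 2, K1 nutlin library 2, TPC1 DMSO library 1 or TPC1 nutlin library 3.

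**Figure D2:**
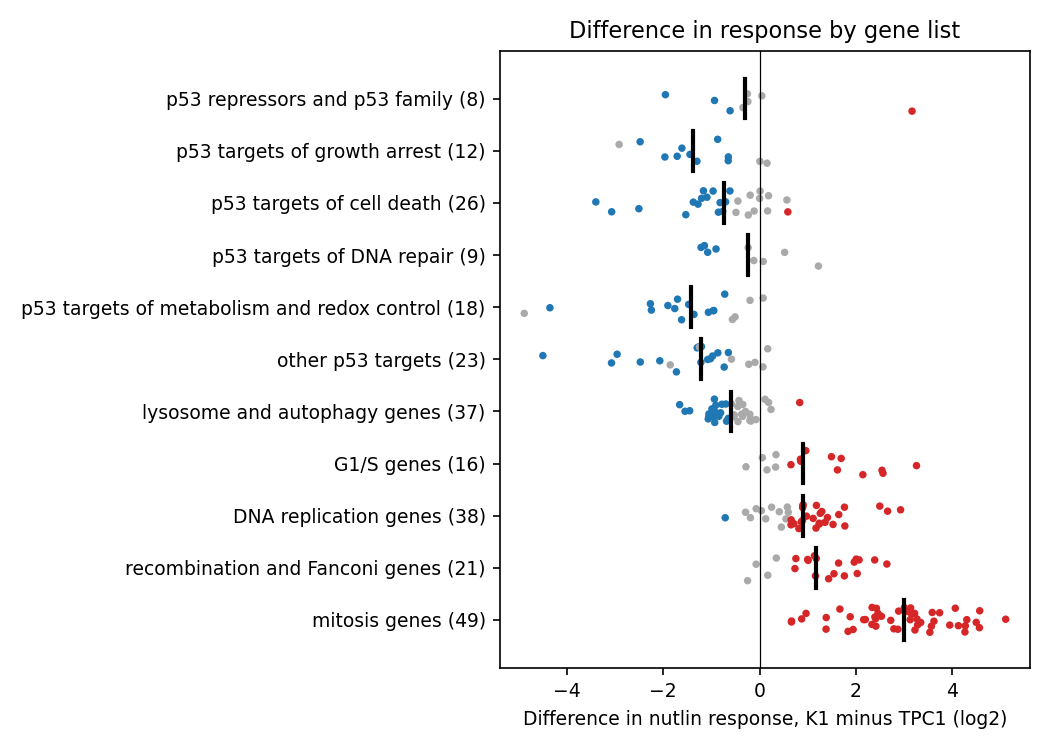
Difference in the log2 response, K1 minus TPC1, for each tested gene of 11 lists (x axis), 1 point a gene, with the number tested in brackets and a black bar at the median. Red points were called higher and blue points lower in K1, grey points were not called. All 49 mitotic genes lie at 0.66 or above, and most called p53 targets lie below 0.

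Most p53 targets rose in TPC1, a smaller number rose in K1, and the majority had a lower response in K1. Of 87 listed targets tested, 72 were upregulated and 2 downregulated in TPC1, and 53 and 1 in K1. The response was called lower in K1 for 56 (64.4%), against 10.5% of all genes tested, and higher for 1. Medians were 2.05 in TPC1 and 0.85 in K1, with a median difference of -0.97. Over the pairs of libraries the list median was 1.94 at its lowest and 2.08 at its highest in TPC1, and 0.80 and 0.86 in K1.

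Levels before and under nutlin both enter these differences. Over the 77 targets with at least 1 CPM in each line, the median gene was in K1 at 97.2% of its TPC1 level in DMSO and at 54.2% under nutlin. K1 held the higher mean in 36 of the 77 genes in DMSO and in 13 under nutlin. Among the 8 growth arrest targets of this kind called lower, the median gene stood in K1 at 165% of its TPC1 level in DMSO and 68.8% under nutlin, and among the 13 metabolic targets at 95.1% and 37.3%. Whether the levels themselves differed between the lines was not tested.

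Among the repressors of p53, MDM2 rose from 139 and 125 CPM to 4212 and 4203 CPM in TPC1 and from 154 and 155 CPM to 1247 and 1299 CPM in K1. DMSO levels were slightly higher in K1, and nutlin levels were far higher in TPC1. The difference was -1.95 (SE 0.12, adjusted p = 4.02e-09). PPM1D, the phosphatase that dephosphorylates p53, rose from 14.8 and 16.9 CPM to 59.8 and 61.8 CPM and from 20.7 and 22.3 CPM to 50.2 and 57.6 CPM, so nutlin levels were close in the lines. Its difference of -0.61 (adjusted p = 0.00252) passed the fold threshold narrowly, and the call was lost in 8 of 19 alternatives. Among these were the 8 DMSO and nutlin libraries alone (-0.57) and library size scaling (-0.56). The call was also lost without K1 DMSO library 2 (-0.56), K1 nutlin library 1 (-0.52) or TPC1 DMSO library 1 (-0.52). CCNG1, cyclin G1, differed by -0.93. MDM4, the relative of MDM2 that inhibits p53 without degrading it, had 0.08 in TPC1 and 0.12 in K1 on the log2 scale, and no call in any comparison.

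TP73 was the 1 member of this group with a higher response in K1, and it is named after its values were seen. It encodes p73, a p53 relative that binds the same kind of DNA site, and lies at chr1:3569080-3652765 on the plus strand (GRCh37). In K1 it went from 0.141 and 0.267 CPM to 10.9 and 11.9 CPM, and in TPC1 from 0.211 and 0.154 CPM to 1.38 and 0.900 CPM, the TPC1 nutlin libraries holding 41 and 56 reads. Both K1 nutlin libraries stood above all others. On the log2 scale K1 rose by 5.77 and TPC1 by 2.61, a difference of 3.16 (SE 0.63, adjusted p = 0.00114), and the call was kept in all 19 alternatives.

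Growth arrest targets had a median of 2.29 in TPC1 and 0.85 in K1. Of 12 tested, 9 were lower in K1 (75.0%, against 10.5% of all genes tested). CDKN1A, which encodes the kinase inhibitor p21 (chr6:36644237-36655114, plus strand, GRCh37), had 125 and 152 CPM in TPC1 DMSO and 6819 and 6997 CPM in TPC1 nutlin. In K1 it had 109 and 116 CPM and 967 and 1055 CPM. The lines were close in DMSO and far apart under nutlin, with a difference of -2.48 (SE 0.15, adjusted p = 4.34e-09).

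BTG2, an antiproliferative factor that promotes mRNA deadenylation, rose by 4.86 in TPC1 and 3.99 in K1 on the log2 scale, from 20.7 and 21.6 to 610.1 and 618 CPM and from 7.39 and 8.48 to 121 and 131 CPM, with a difference of -0.87 (adjusted p = 0.000187). ZMAT3, an RNA-binding suppressor of growth, differed by -1.71. PLK2, a kinase of the centriole cycle, rose by 0.74 in TPC1 and 0.75 in K1, and its difference was 0.01 (SE 0.13). BTG1 had -0.12 and 0.03 and was called in neither line.

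Targets of cell death had medians of 1.40 and 0.80. Of 26 tested, 15 were lower in K1 (57.7%, against 10.5% of all genes tested) and 1 higher (3.85%, against 8.73%). TP53I3, an oxidoreductase known as PIG3, went from 28.98 and 34.9 CPM to 828 and 865 CPM in TPC1 and from 28.3 and 26.4 CPM to 82.3 and 89.98 CPM in K1, a difference of -3.07 (SE 0.14, adjusted p = 4.79e-10). TP53INP1, an autophagy and stress factor, differed by -2.5. Both rose in each line, from near equal DMSO levels.

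BBC3, the BH3-only protein PUMA, went from 7.53 and 8.72 CPM to 79.9 and 81.2 CPM in TPC1 and from 10.6 and 9.31 CPM to 40.4 and 46.9 CPM in K1, a difference of -1.16 (SE 0.16, adjusted p = 4.14e-05). For FAS, the death receptor, TPC1 had 18.7 and 21.1 CPM in DMSO and 110.3 and 125 CPM under nutlin, and K1 45.1 and 43.9 CPM and 106 and 96.3 CPM. Its levels under nutlin were thus near each other, although the fold change was smaller in K1 by 1.37 on the log2 scale (adjusted p = 1.67e-06). TNFRSF10A, the TRAIL receptor DR4, rose by 1.09 in TPC1 and 1.66 in K1, and its difference of 0.57 lay just under the fold threshold. TNFRSF10A was called higher in 8 of 19 alternatives. These include DESeq2 (0.59), library size scaling (0.63) and the 8 DMSO and nutlin libraries alone (0.61). It was also called without K1 DMSO library 1 (0.59), TPC1 nutlin library 1 (0.61) or TPC1 DMSO library 3 (0.70). BID, which links death receptors to mitochondria, was the 1 higher target. It fell in TPC1 (-0.91), was not called in K1 (-0.32), and its difference of 0.59 was not called without K1 DMSO library 1 (0.52), K1 nutlin library 1 (0.54), TPC1 nutlin library 1 (0.56) or TPC1 DMSO library 3 (0.41), nor with the replicate number as a block (0.58). In all, the call for BID was lost in 8 of 19 alternatives.

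DNA repair targets differed least of the p53 target lists, with a median difference of -0.24. Their medians within the lines were 0.58 in TPC1 and 0.86 in K1, and over the pairs of libraries they overlapped, with 0.25 to 0.93 in TPC1 and 0.48 to 0.88 in K1. Of 9 tested, 4 were lower in K1 (44.4%, against 10.5% of all genes tested). These were DDB2, XPC, RRM2B and POLH, with differences of -1.21, -1.08, -1.14 and -0.90. DDB2 and XPC recognize ultraviolet damage, RRM2B supplies nucleotides and POLH copies past lesions. FANCC, of the Fanconi core complex, fell in both lines, and its difference of 0.52 was below the fold threshold.

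Targets of metabolism and redox control had the widest gap among the p53 lists, with a median of 2.38 in TPC1 and 0.51 in K1. Of 18 tested, 13 were lower in K1 (72.2%, against 10.5% of all genes tested). FUCA1, a lysosomal fucosidase, rose from 17.01 and 18.2 CPM to 121 and 121 CPM in TPC1 and had 6.52 and 6.83 CPM and 10.3 and 8.79 CPM in K1, a difference of -2.26. NINJ1, which ruptures the plasma membrane of dying cells, differed by -2.24 and was not called in K1. GDF15, a secreted stress cytokine, is scarcely expressed in K1. It had 0.451 and 0.240 CPM in K1 DMSO and 1.03 and 1.63 CPM in K1 nutlin, against 105 and 129 CPM and 1637 and 1774 CPM in TPC1. Its difference of -1.90 (SE 0.43, adjusted p = 0.00281) was not called without K1 DMSO library 1 (-1.39). SCO2, a copper chaperone of cytochrome oxidase, had -0.02 in TPC1 and 0.06 in K1 and was called in neither.

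Of 23 other p53 targets, 16 were lower in K1 (69.6%, against 10.5% of all genes tested), with medians of 2.5 and 1.05. IER5, an early response gene, rose by 0.60 in K1 and had 0.53 in TPC1, and its difference of 0.07 did not pass the test.

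**Figure D3:**
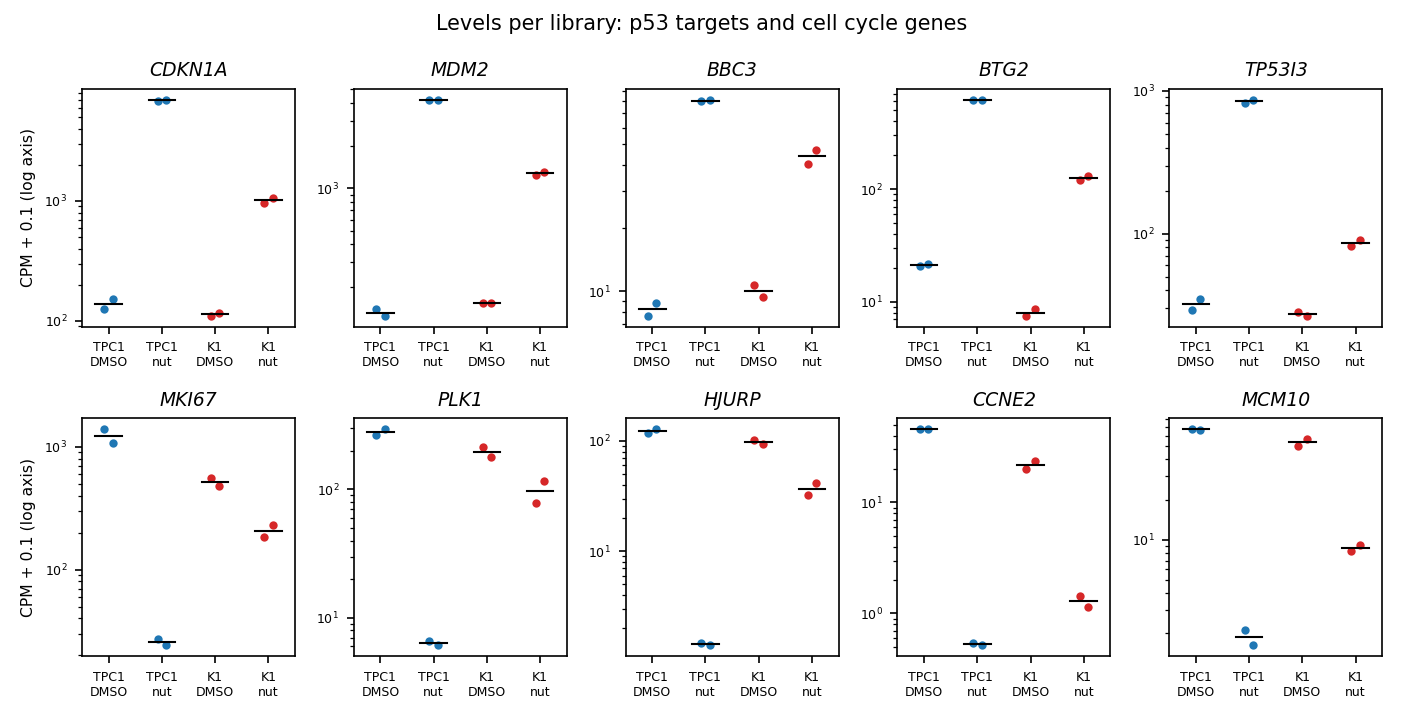
Level of 10 genes in each library (CPM plus 0.1, log axis), with TPC1 in blue, K1 in red and a bar at the mean of the 2 libraries. DMSO levels are close between the lines for CDKN1A, MDM2, BBC3 and TP53I3, nutlin levels are higher in TPC1, and for MKI67, PLK1, HJURP, CCNE2 and MCM10 the nutlin levels are higher in K1.

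The 6 largest negative differences include genes that were nearly silent in TPC1 without nutlin. UNC13A, a synaptic vesicle priming factor (chr19:17712145-17799174, minus strand, GRCh37), went from 0.185 and 0.126 CPM to 105 and 81.96 CPM in TPC1, whereas K1 had 4.60 and 3.49 CPM in DMSO and 4.97 and 6.24 CPM under nutlin. The difference was -8.80 (SE 0.32, adjusted p = 5.04e-11). C17orf103 went from 11.5 and 12.2 CPM to 180.2 and 171 CPM in TPC1 and had 5.61 and 5.65 CPM and 6.85 and 6.21 CPM in K1, a difference of -3.67 (SE 0.12, adjusted p = 3.09e-11). Neither gene was called in K1.

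GREB1, known as an estrogen-induced gene, rose in both lines, from 3.62 and 3.54 CPM to 115 and 107 CPM in TPC1 and from 16.9 and 17.8 CPM to 41.5 and 38.6 CPM in K1, a difference of -3.75. TRIM22, an antiviral ubiquitin ligase and p53 target, also rose in both, with a difference of -4.49 (SE 0.29, adjusted p = 1.04e-08). Its levels ran the other way, with 0.343 and 0.112 CPM in TPC1 DMSO and 13.2 and 11.2 CPM in TPC1 nutlin against 36.5 and 34.3 CPM and 100.4 and 92.5 CPM in K1. PLEKHG1, a guanine nucleotide exchange factor, and CDH10, a cadherin, differed by -4.35 and -3.77. Under nutlin PLEKHG1 reached 16.9 and 13.5 CPM in TPC1 and 19.9 and 20.8 CPM in K1, and CDH10 13.2 and 14.9 CPM and 16.7 and 13.98 CPM, so the larger fold change in TPC1 went with a lower DMSO level.

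K1 moved 50 genes further than TPC1, 31 of them with a higher and 19 with a lower response. Only 5 of the 31 were upregulated in both lines, and 1 of the 19 was downregulated in both. PLEKHA6, a protein of adherens junctions, rose from 3.81 and 4.35 CPM to 20.5 and 17.7 CPM in K1 and from 58.3 and 51.1 CPM to 103 and 89.6 CPM in TPC1, a difference of 1.41 (SE 0.21, adjusted p = 9.85e-05). FLG-AS1, a noncoding RNA antisense to filaggrin, differed by 1.33 and reached 7.64 and 8.85 CPM in K1.

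RGL1, an exchange factor for Ral, rose in K1 from 23.6 and 25.02 CPM to 52.1 and 58.6 CPM and had 21.95 and 21.9 CPM and 27.99 and 28.3 CPM in TPC1, a difference of 0.83 (SE 0.11, adjusted p = 3.40e-05). Its DMSO levels were near each other, and both K1 nutlin libraries lay above the rest. IL6R, the receptor of interleukin 6, rose in K1 (0.65) with -0.12 in TPC1, but the difference of 0.77 was not called without K1 DMSO library 1 (0.55). PRDM1, a transcriptional repressor, and CD274, the immune checkpoint ligand PD-L1, are named after their values were seen. PRDM1 rose by 0.91 in TPC1 and 2.17 in K1, a difference of 1.26 (adjusted p = 0.00145). CD274 rose in K1 from 90.8 and 105 CPM to 189.8 and 162 CPM and had 3.20 and 3.72 CPM and 3.88 and 3.92 CPM in TPC1. Its difference of 0.69 was not called without K1 DMSO library 1 (0.58), K1 nutlin library 1 (0.57) or TPC1 DMSO library 3 (0.56).

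CDCA7, a cell cycle gene needed for DNA methylation at heterochromatin, was the 1 gene that fell in both lines and fell further in K1. It went from 16 and 19.3 CPM to 2.57 and 2.09 CPM in K1 and from 60.8 and 67.2 CPM to 17.9 and 18.1 CPM in TPC1, a difference of -1.10 (SE 0.19, adjusted p = 0.000384). SLC7A2, a transporter of cationic amino acids, KIF21B, a kinesin, and ERI2, an exonuclease, fell in K1 without a call in TPC1, with differences of -0.96, -0.93 and -0.86. BCL2L11, the BH3-only protein BIM, is named after its values were seen. It fell in K1 from 3.19 and 2.61 CPM to 1.23 and 1.11 CPM and had 10.7 and 10.96 CPM and 10.01 and 9.69 CPM in TPC1, a difference of -1.17 (adjusted p = 0.000213).

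Of the 9 genes that moved in opposite directions, 7 rose in TPC1 and fell in K1, and 2 did the converse. PODXL, podocalyxin, a sialomucin of the cell surface, was the largest among those that met the rule. It rose in TPC1 from 12.1 and 9.60 CPM to 52.5 and 45.8 CPM and fell in K1 from 19.4 and 20.7 CPM to 13.8 and 12.7 CPM, so the order of the lines turned over. The difference was -2.79 (SE 0.16, adjusted p = 2.19e-09).

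PMEPA1, an inhibitor of TGF-beta signaling, rose in TPC1 from 89.9 and 85.9 CPM to 167 and 158 CPM and fell in K1 from 396 and 317 CPM to 211 and 244 CPM, a difference of -1.53. SCAPER, a protein of the endoplasmic reticulum that binds cyclin A, rose from 10.6 and 9.51 CPM to 18.4 and 18.3 CPM in TPC1 and fell from 8.44 and 7.28 CPM to 5.27 and 5.01 CPM in K1, a difference of -1.49. The other genes of this kind, named after their values were seen, are PLXNA4, PLCD4, ELOVL2, PARM1, C8orf31 and LOC100130238, and PLCD4 and PARM1 are the pair that rose in K1. None of these met the rule for naming, and 5 of the 9 opposite genes averaged 1 CPM or more in each line. The number of opposite genes was 5 without K1 DMSO library 1, 14 without a filter on low counts, 16 with the replicate number as a block, 18 with that block crossed in K1 DMSO and 1 when the test required a difference beyond 1.5-fold.

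**Figure D4:**
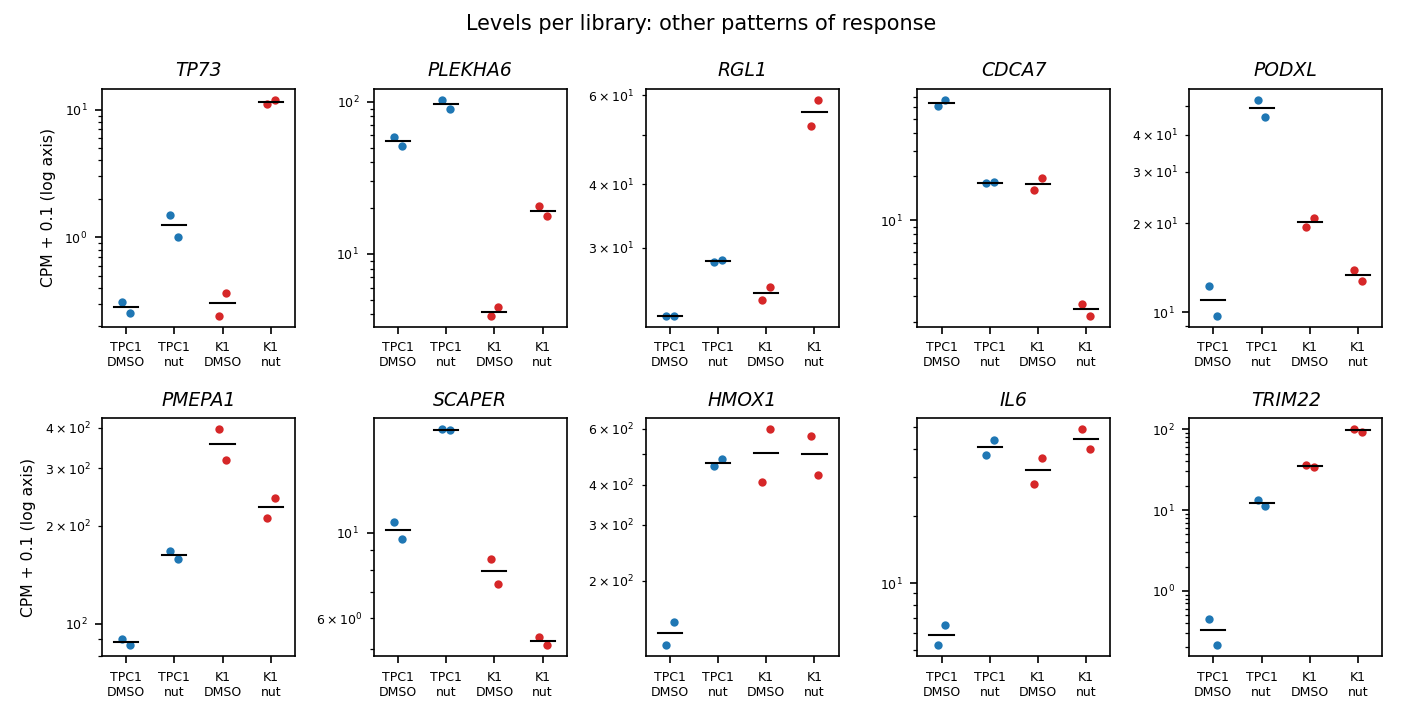
Level of 10 genes in each library (CPM plus 0.1, log axis with its own range for each gene), TPC1 in blue, K1 in red, bars at the mean of the 2 libraries. TP73, PLEKHA6 and RGL1 rise further in K1, CDCA7 falls further, PODXL, PMEPA1 and SCAPER rise in TPC1 and fall in K1, and TRIM22 has a larger fold change in TPC1 but a higher level in K1.

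Of 37 lysosomal and autophagy genes, 24 were upregulated and 1 downregulated in TPC1, and 2 were upregulated in K1. The response was lower in K1 for 18 (48.6%, against 10.5% of all genes tested) and higher for 1, with medians of 0.73 and 0.14. NEU1, a sialidase, went from 55.3 and 59.97 CPM to 199 and 191 CPM in TPC1 and had 125 and 109 CPM and 116 and 134 CPM in K1, a difference of -1.66 (adjusted p = 7.81e-06). TPP1, a lysosomal peptidase, differed by -1.55, from 110.4 and 114 CPM to 416 and 429 CPM in TPC1 and from 287 and 271 CPM to 353 and 366 CPM in K1. BNIP3, a mitophagy receptor, fell in TPC1 (-0.72) and was the 1 higher gene.

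Of 33 chaperones and related genes of protein folding and degradation tested, 9 fell and 6 rose in TPC1, while 1 rose in K1. The response was higher in K1 for 10 (30.3%, against 8.73% of all genes tested), with a median difference of 0.33. The 10 were HSPA8, HSPH1, DNAJA1, HSP90AA1, HSP90AB1, HSPD1, HSPE1, HSPA5, MANF and XBP1. All but XBP1, a transcription factor, act in the cytosol, mitochondria or endoplasmic reticulum. HSPH1, a nucleotide exchange factor of HSP70, went from 313 and 313 CPM to 143 and 153 CPM in TPC1 and had 389.7 and 415 CPM and 446 and 388 CPM in K1, a difference of 1.13 (adjusted p = 2.12e-06). HSPA5, the chaperone BiP, is named after its values were seen. It had 1386 and 1513 CPM and 1104 and 1132 CPM in TPC1 and 1111 and 1076 CPM and 1597 and 1560.0 CPM in K1, so nutlin libraries lay below DMSO in TPC1 and above it in K1. Neither change passed the fold threshold, but their difference did, at 0.90 (SE 0.11, adjusted p = 1.82e-05).

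Genes of the integrated stress response, in which phosphorylation of eIF2alpha favors translation of ATF4, split in both directions, with 7 of 44 higher (15.9%, against 8.73% of all genes tested) and 8 lower (18.2%, against 10.5%) in K1. ATF4 itself was called in no comparison, with 606 and 704 CPM and 486 and 513 CPM in TPC1 and 411 and 375 CPM and 329.5 and 340.5 CPM in K1. SLC1A4, a neutral amino acid transporter, and STC2, a secreted glycoprotein, fell more in TPC1, with differences of 1.81 and 1.81. DDIT3, which encodes CHOP, rose in TPC1 from 4.02 and 4.83 CPM to 13.8 and 14.3 CPM and had 13.3 and 12.9 CPM and 13.7 and 13.98 CPM in K1, a difference of -1.57 (adjusted p = 1.06e-05). NUPR1, a stress-induced chromatin factor, differed by -1.51.

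ATF3 rose in TPC1 (1.72) and had 0.63 in K1, at levels of at most 5.77 CPM. Its difference of -1.10 (SE 0.43) was not called (adjusted p = 0.0658), but was without K1 DMSO library 1 (-1.51) or K1 nutlin library 1 (-1.55), and with DESeq2 (-1.06). With the replicate number as a block it was called too (-1.11, adjusted p = 0.0326).

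Targets of NRF2, the factor of the oxidative stress response, differed in 5 of 22 genes, a share of 22.7% that lies near the 19.2% of all genes tested. HMOX1, which degrades heme, rose in TPC1 from 126 and 148 CPM to 457 and 480.2 CPM and had 407 and 598 CPM and 570.4 and 429.9 CPM in K1, where the treatments overlapped. The difference was -1.78 (SE 0.33, adjusted p = 0.000543), and K1 without nutlin was near the level of TPC1 with it. FTH1 and FTL, the ferritin chains, and AKR1B10, an aldo-keto reductase, were also lower in K1, by -0.83, -0.75 and -2.59. AKR1B10 averaged under 5 CPM in both treatments of at least 1 line. GCLM, of glutathione synthesis, was higher (0.73), having fallen in TPC1.

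Inflammatory genes were lower in K1 in 8 of 25 cases (32.0%, against 10.5% of all genes tested). IL6, the interleukin, rose in TPC1 from 5.18 and 6.41 CPM to 37.3 and 43.6 CPM and was not called in K1, with 27.7 and 36.1 CPM and 48.9 and 39.6 CPM, a difference of -2.32 (SE 0.25, adjusted p = 3.34e-06). CXCL2 differed by -0.97, while CXCL8, another neutrophil chemokine, had a difference of 0.47 that did not pass the test. Interferon-stimulated genes were lower in 6 of 31 (19.4%) and higher in 1, IFI44L (1.55), together 22.6% against 19.2% of all genes tested, and DESeq2 called 5 lower and 0 higher. IFI44L averaged under 5 CPM in both treatments of at least 1 line. STAT2, a subunit of the interferon-activated factor, rose in both lines, by 1.70 in TPC1 and 0.72 in K1, and ISG15, a ubiquitin-like protein, differed by -0.80.

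Of 15 genes of antigen presentation, TAP1, TAPBP and ERAP2 were lower and PSMB9 higher in K1, a share of 26.7% against 19.2% of all genes tested. TAP1, the peptide transporter and a p53 target, rose in both lines, from 22.6 and 23.04 CPM to 227 and 222 CPM in TPC1 and from 32.2 and 31.9 CPM to 80.2 and 86.3 CPM in K1, a difference of -1.92 (adjusted p = 8.42e-10). ERAP2, which trims peptides, differed by -0.82, TAPBP by -0.60 and PSMB9, an immunoproteasome subunit, by 0.86. PSMB9 averaged under 5 CPM in both treatments of at least 1 line.

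Of 18 genes downstream of MAPK signaling, 8 fell and 4 rose in TPC1, while 1 fell and 1 rose in K1, and 27.8% were called different against 19.2% of all genes tested. The feedback inhibitors SPRY2 and SPRY4, ETV5 and FOSL1 were higher in K1, by 0.71, 0.91, 0.64 and 1.16, and DUSP5, a phosphatase of ERK, was lower (-0.77). FOSL1, also an AP-1 factor, fell from 523 and 575 CPM to 229.7 and 238 CPM in TPC1 and had 335 and 355 CPM and 329 and 328 CPM in K1. Of 10 AP-1 factors, FOS, FOSL1 and MAFF were higher and FOSB lower (1.37, 1.16, 0.89 and -0.79), which is 40.0% of the list against 19.2% of all genes tested. FOS averaged under 5 CPM in both treatments of at least 1 line. The call for FOSB was lost without K1 DMSO library 2 (-0.77), K1 nutlin library 1 (-0.77) or TPC1 nutlin library 1 (-0.75). Of 11 ligands and receptors of the EGF family, NRG1 and EREG were lower (18.2%, against 10.5% of all genes tested). Counting calls in either direction, the share was 18.2% against 19.2% of all genes. NRG1, a ligand of ERBB3, rose in TPC1 from 15.8 and 14.3 CPM to 76.1 and 73.6 CPM and had 16.3 and 14.7 CPM and 15.3 and 17.2 CPM in K1, a difference of -2.25 (SE 0.13, adjusted p = 3.90e-09). EREG differed by -0.88.

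Extracellular matrix genes were higher in 4 (10.3%) and lower in 6 (15.4%) of 39, near the 8.73% and 10.5% of all genes tested. COL7A1, the anchoring fibril collagen, rose in TPC1 from 33.4 and 23.3 CPM to 115 and 87.9 CPM and had 151 and 139.7 CPM and 158 and 158 CPM in K1, a difference of -1.73. COL4A5, of basement membranes, differed by -1.45. The higher genes were HAS2, LOX, TNC and COL6A3, with 1.51, 0.64 and 0.59 for the last 3. LOX averaged under 5 CPM in both treatments of at least 1 line. HAS2, which makes hyaluronan, was near the detection limit in TPC1 DMSO and had no read in TPC1 nutlin, so no fold is given, and K1 had 15.9 and 17.7 CPM and 15.8 and 14.1 CPM. COL6A3 was at or below 8.69 CPM in TPC1, and the call for TNC was lost without K1 DMSO library 2 (0.56), TPC1 DMSO library 1 (0.46) or TPC1 nutlin library 3 (0.56). Of 21 integrins and cadherins, CDH2, N-cadherin, and ITGB3 were higher (0.99 and 1.03), having fallen in TPC1, and ITGA11 was lower (-0.61), a call lost without K1 DMSO library 1 (-0.56), K1 nutlin library 2 (-0.57) or TPC1 nutlin library 1 (-0.57) and in 9 of 19 alternatives in all. These 3 are 14.3% of the list, below the 19.2% of all genes. Of 32 genes of sterol and fatty acid synthesis 18.8% were called, about the share of all genes. Among them SQLE, EBP, SCD and ELOVL6 were higher and TM7SF2 and SREBF2 lower, with 0.75, 2.01, 1.09, 1.45, -2.79 and -0.61. EBP and TM7SF2 averaged under 5 CPM in both treatments of at least 1 line, so their large values rest on low levels. ELOVL6 and SCD, which elongate and desaturate fatty acids, fell in TPC1, with log2 fold changes of -1.51 and -1.30, and were not called in K1. The call for SREBF2 was lost in 11 of 19 alternatives, among them DESeq2 (-0.58), library size scaling (-0.55) and the omission of K1 DMSO library 1 (-0.51), K1 nutlin library 1 (-0.52), TPC1 nutlin library 1 (-0.56) or TPC1 DMSO library 3 (-0.52).

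Few genes of the ribosome and respiratory chain were called. Of 77 cytosolic ribosomal protein genes, 1 was called, RPS19, which was lower in K1 (-0.62). The call was lost in 6 of 19 alternatives. These include the 8 DMSO and nutlin libraries alone (-0.58) and the omission of K1 DMSO library 2 (-0.55) or TPC1 DMSO library 1 (-0.51). The median ribosomal gene had 0.33 in TPC1 and 0.02 in K1, and the difference was negative in 75 of 77. The unadjusted p in edgeR was under 0.05 for 41 lower and 0 higher ribosomal genes, so many small differences pointed 1 way. Of 79 respiratory chain genes edgeR and DESeq2 called 0, with an unadjusted p under 0.05 in edgeR for 5 higher and 11 lower. Clustered histone genes, most of which lack a poly(A) tail and are poorly captured here, were lower in 7 of 51, with HIST2H2BE at -1.30. That is 13.7%, near the 10.5% of all genes tested, and below the 19.2% of all genes called in either direction. The median difference of that list was positive, 0.86, and 8 of the 51 genes reached 1 CPM in each line. Of 12 thyroid genes, HHEX and THRA were higher (1.37 and 0.74) and TG and DUOX2 lower (-2.24 and -2.38), DUOX2 at under 1 CPM in every library, while PAX8 had -0.41 and was not called. The called genes are 33.3% of the list, against 19.2% of all genes tested. HHEX and TG averaged under 5 CPM in both treatments of at least 1 line.

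**Figure D5:**
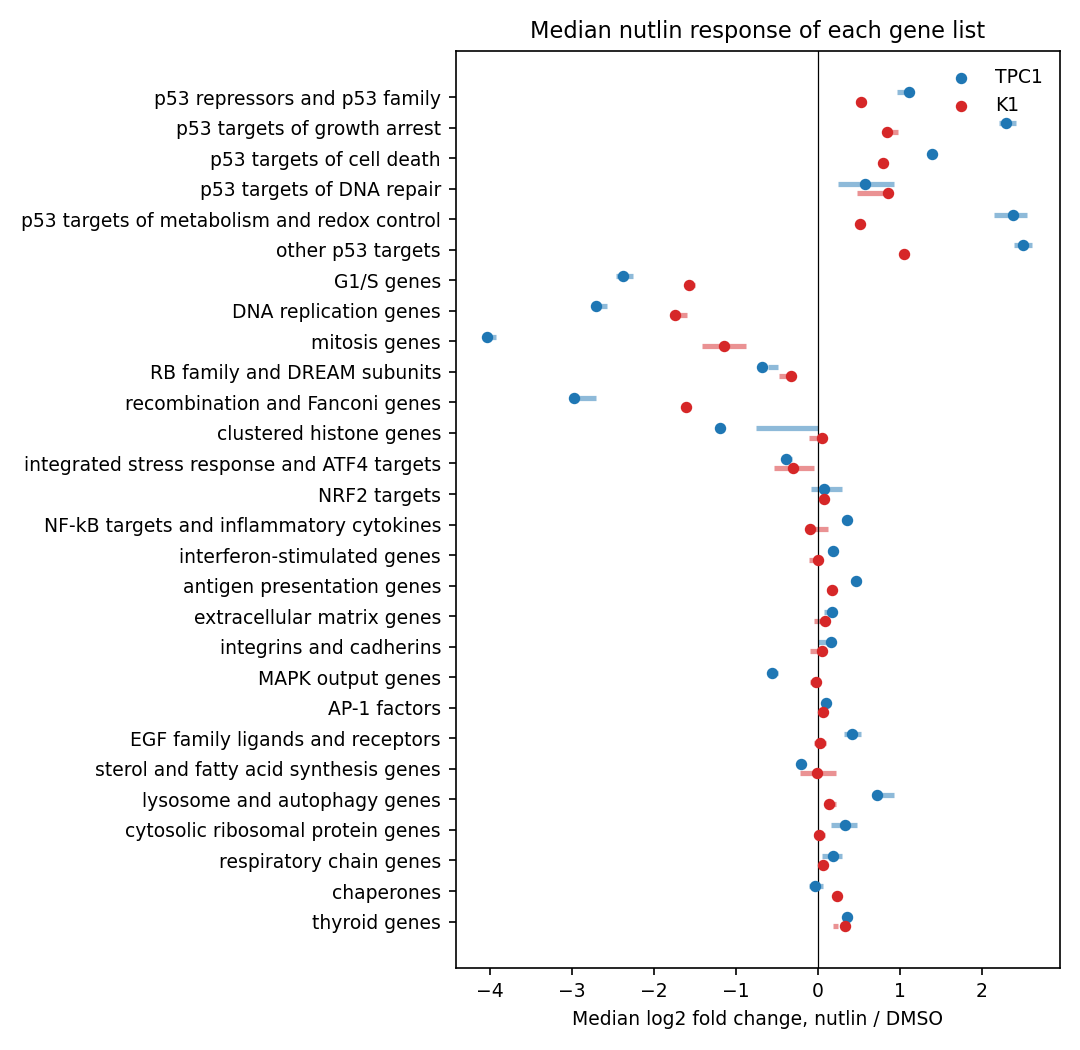
Median log2 fold change of nutlin over DMSO of each gene list (points, from the fit) in TPC1 (blue) and K1 (red), with bars over the lowest and highest median from the 4 pairs of 1 nutlin and 1 DMSO library, computed on log2(CPM + 0.1), which pulls lists of low genes such as the histones toward 0. The mitotic list is at -4.03 in TPC1 and -1.15 in K1, and most lists outside the p53 and cell cycle groups lie within 1 of 0 in both lines.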

How the data were processed

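Strand-specific poly(A)+ RNA of TPC1 and K1 was sequenced, 2 libraries for each of 4 treatments per line. The authors aligned reads to GRCh37 with TopHat2 2.0.13 and counted them per gene with HTSeq 0.6.1, per the submitters' processing notes, so the deposited values are raw counts for 25369 gene symbols, 4539 without a count. No column was left out.

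Counts were scaled by TMM and fitted with edgeR 4.0.16 in R 4.3.3, all 16 libraries in 8 groups, keeping 16738 genes above 0.1 CPM in at least 2 libraries (common dispersion 0.00562, 8 residual degrees of freedom). The interaction contrast and the nutlin response of each line were tested by the quasi-likelihood F test, with Benjamini-Hochberg adjustment over all genes. DESeq2 1.42.0 and limma 3.58.1 served as alternatives, and Python 3.11.15 made tables and plots. Total counts set the precision, and replicates differed by more than counting noise (chi-square per degree of freedom 5.29 to 51.7). Levels are compared within a gene only.

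Gene lists, members and the rule were chosen with earlier results of these data known. Named genes are the 6 largest differences each way, the 4 largest each way among opposite genes, and the 4 largest raised and lowered among genes moved further in K1, all called, averaging 5 CPM or more in the better expressed treatment of each line and library ratios that do not overlap between lines. To these were added for each list the 2 largest differences each way at that level, 14 genes of the p53 pathway, its output and the stress response, and, after their values were seen, TP73, BCL2L11, CD274, PRDM1, HSPA5, PLCD4 and PLXNA4, as well as members behind small counts. Some genes that the rule names are not reported here. Joined lists hold each gene once. The steps were tested on 16545 genes of simulated data of this comparison, where 91% of 2-fold and 100% of 4-fold changes were called and 18 of 16345 unchanged genes were called falsely. The changed genes all averaged 1 CPM or more in TPC1 and in K1 with DMSO, so the 91% and 100% do not cover lower genes. Promoters came from RefSeq (GRCh38.p14) and gene coordinates from GENCODE on GRCh37. Of the genes tested 75.8% matched a promoter, so shares are set against the whole promoter table, and the scans of G1/S and p53 target promoters, with fewer than 80% matched, are void and give no value here. Alternatives changed scaling, filter, test, samples, block and libraries left out, and a GC and length correction and a crossed block were chosen after seeing the data.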

Additional observations from a re-analysis of the deposited data

Results flagged for a closer look

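The response to nutlin differed between the lines by the test of the difference itself for 1462 genes that were higher and 1755 that were lower in K1, and for these named genes, each given as the log2 difference K1 minus TPC1. Among genes of the mitotic apparatus these were HJURP (5.11), NEK2 (4.57), CENPA (4.56), PLK1 (4.50), GTSE1 (4.40), NCAPH (4.30) and MKI67 (4.26), and at G1/S CCNE2 (2.54) and E2F1 (1.62). Genes of the p53 pathway were lower in K1, namely CDKN1A (-2.48), MDM2 (-1.95), PPM1D (-0.61), BBC3 (-1.16), BTG2 (-0.87), GDF15 (-1.90) and FAS (-1.37), while TP73 was higher (3.16). The call for PPM1D was lost in 8 of 19 alternatives.

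The largest negative differences were those of UNC13A (-8.80), TRIM22 (-4.49), PLEKHG1 (-4.35), CDH10 (-3.77), GREB1 (-3.75) and C17orf103 (-3.67), among genes that met the rule for naming. Genes called in opposite directions were PODXL (-2.79), PMEPA1 (-1.53) and SCAPER (-1.49). PLXNA4 (-1.38) and PLCD4 (2.55) were too, but did not meet the rule and are named after their values were seen. Of the 9 opposite genes, 5 averaged 1 CPM or more in each line. Those that K1 raised further were PLEKHA6 (1.41), FLG-AS1 (1.33), PRDM1 (1.26), RGL1 (0.83), IL6R (0.77) and CD274 (0.69), and those that it lowered further were BCL2L11 (-1.17), CDCA7 (-1.10), SLC7A2 (-0.96), KIF21B (-0.93) and ERI2 (-0.86). HSPA5 (0.90) differed without a called change in either line. Growth medium differed with the line, and the 2 cannot be told apart.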

How the results depend on the processing

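Over 19 alternatives the number of genes with a higher response in K1 stayed within 1.5 times of 1462, and that of genes with a lower response within 1.5 times of 1755, except when edgeR's glmTreat required the difference itself to exceed 1.5-fold. That stricter test called 545 higher and 720 lower genes, 1224 that moved less far in K1, 9 that moved further and 1 opposite. Library size scaling put 52.6% of calls on the higher side, against 45.5% as reported. The count of opposite genes was the least stable, with 14 without a filter, 16 with the replicate block, and 5 to 9 when 1 library was left out. Leaving out each library in turn, the median difference ran from -1.10 to -0.93 for the p53 targets and from 1.60 to 1.85 for the cell cycle lists.

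Replicate numbers correlated across treatments in TPC1 (0.38 to 0.58 across genes) and not throughout in K1 (-0.27 to 0.27), so they are treated as shared numbers only. The replicate block gave 3370 calls in place of 3217, with 3193 shared genes. With the K1 DMSO numbers crossed, since those of DMSO and nutlin correlated at -0.20, it gave 3446 calls, of which 18 were opposite. Of 99 called genes that the rule for naming or the stated additions gave, 65 kept their call in all 19 alternatives, and none reversed. Other called genes given as list members, such as TAPBP, COL6A3, ETV5, XPC and POLH, were not followed through the alternatives. The cause of these shifts was not tested. With 2 libraries a group, differences of low genes such as GDF15 in K1 rest on few reads.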
